A study of Mus musculus with 8 samples.

Results

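Laminins are secreted proteins of 1 α, 1 β and 1 γ chain, which join in the cell before the trimer is released and assemble around it as a layer of the basement membrane. The α chain carries the domains that bind cell surface receptors, the β and γ chains complete the coiled-coil, and γ1 also binds nidogen, which links laminin to collagen IV. Trimers are named by their chain numbers, so laminin-511 is made of α5, β1 and γ1. Because a trimer needs all of its chains, its least abundant chain was taken as the limit on what the transcripts could supply.

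The 9 laminin chain genes examined here were Lama1, Lama2, Lama3, Lama4 and Lama5 (α chains), Lamb1, Lamb2 and Lamb3 (β chains) and Lamc1 (a γ chain), out of 55487 genes in the deposited tables. They were chosen by symbol with their values in the same wild-type against knock-out contrast already known, so their levels and fold changes are given as a description. Lamc3, another γ chain, was read as well, because trimers such as laminin-523 cannot be judged without it. The question was which laminin trimers these cells have the transcripts to make, and whether the answer differs between genotypes.

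RNA was sequenced from Lewis lung carcinoma (LLC) cells, a mouse lung carcinoma line grown in culture in serum-containing medium. There were 4 libraries of wild-type cells and 4 of cells in which Ago2, an Argonaute protein of small RNA silencing, was knocked out (ΔAgo2). The labels call the 4 of each genotype biological replicates. The knock-out was made with a lentiviral CRISPR-Cas9 vector under puromycin selection, and no control vector is named for the wild-type cells. The study also describes sorting of single-cell clones and names a clone used for implantation into mice, but does not say whether the sequenced cells were that clone, so a clone and a genotype cannot be told apart. Proteins were not measured in these files.

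Totals ran from 39628101 to 68530912 counts per library. Wild-type replicate 4 stood apart from the rest, with 0.540% of its counts on mitochondrial genes against 2.39% to 4.51% in the other 7 libraries, and with a deviation from the other wild-type libraries that followed the GC content of genes (Spearman rho 0.72 across genes, which are not independent replicates). Where leaving it out moved a fold change given below by over 1.5 times or turned its sign, the value without it is given as well. Of the 6 epithelial markers, Krt8 and Krt18 reached 1 TPM, a read count scaled to gene length and library, in every library. Krt19 did so in some libraries only, and Epcam, Cdh1 and Cldn4 were under 1 TPM in all 8. Nkx2-1, Sftpc, Sftpb, Scgb1a1 and Foxj1 of the 6 lung lineage markers were also under 1 TPM throughout, whereas Ager, the sixth, was between 1.22 and 4.01 TPM. All 5 mesenchymal markers were at 1 TPM or more in every library, with Vim between 2217 and 4193 TPM, while all 5 endothelial markers stayed under 1 TPM. The label names a carcinoma of the lung, and 5 of its 6 lineage markers did not reach this level. The targeted gene, Ago2, was at 72.0 ± 44.2 TPM (SD, n = 4) in wild-type and 89.6 ± 14.0 TPM (SD, n = 4) in ΔAgo2 libraries, so its transcript does not check the labels.

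Because TPM is scaled to gene length, levels of different chains can be set side by side. A chain was called present in a genotype when it reached 1 TPM in each of the 4 libraries. By this measure 4 of the 9 chains, Lama5, Lamb1, Lamb2 and Lamc1, were present, and they were the same 4 in wild-type and ΔAgo2 cells. The other 5 chains never exceeded 0.17 TPM in any library, whereas the lowest value of a present chain was 25.5 TPM, so no member lay near the threshold. The plot of all chains by library shows this gap.

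Sequence upstream of the start site is shown for the present chains that could be matched, Lama5, Lamb1 and Lamb2. No window was found for Lamc1. The sequences come from RefSeq promoter windows (GRCm38.p6, 250 bases before to 50 after the start), in which 5 of the 9 members were found, and only bases upstream of both the RefSeq and the GENCODE start are printed, 5′ to 3′ on the strand of the gene. They are chr2:180225860-180226109 on the minus strand for Lama5, chr12:31265043-31265233 on the plus strand for Lamb1 and chr9:108479612-108479735 on the plus strand for Lamb2. Capitals mark the GC box GGGCGG or its reverse complement CCGCCC, the only motif searched.
Lama5: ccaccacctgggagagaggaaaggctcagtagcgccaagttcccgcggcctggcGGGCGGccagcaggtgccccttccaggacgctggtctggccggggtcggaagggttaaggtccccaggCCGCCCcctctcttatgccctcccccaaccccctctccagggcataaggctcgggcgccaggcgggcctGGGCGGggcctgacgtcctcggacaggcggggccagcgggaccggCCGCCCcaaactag
Lamb1: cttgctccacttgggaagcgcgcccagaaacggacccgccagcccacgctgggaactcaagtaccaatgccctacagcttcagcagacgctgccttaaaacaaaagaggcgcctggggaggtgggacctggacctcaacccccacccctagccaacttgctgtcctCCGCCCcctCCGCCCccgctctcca
Lamb2: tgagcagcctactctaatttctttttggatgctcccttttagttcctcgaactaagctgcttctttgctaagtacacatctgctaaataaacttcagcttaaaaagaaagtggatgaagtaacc

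Over the whole window of 300 bases, Lama5 held 4 GC boxes, 24 CG dinucleotides and 72.7% G and C. Lamb1 held 2 boxes, 18 CG dinucleotides and 63.7% G and C. Lamb2 held no box, 4 CG dinucleotides and 44.0% G and C. Of the chains that were not present, Lama2 held 1 box and 50.3% G and C, and Lamb3 held no box and 59.3% G and C in both of its windows. Base composition and level thus did not share an order over the matched chains. The RefSeq starts of Lama2 and Lamb3 lie 2816 and at least 94295 bases from the GENCODE gene start. Among all 32851 windows, 35.7% held at least 1 box, 19.5% at least 2 and 5.49% at least 4, and the median was 7 CG dinucleotides. A match is a description of the letters and not of a bound site.

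Among the α chains, Lama5 (ENSMUSG00000015647.9, chr2:180176373-180225859, minus strand of GRCm38) encodes α5, the chain of laminin-511 and laminin-521 and a ligand of integrins α3β1 and α6β1. It was at 273, 244, 398 and 224 TPM in wild-type replicates 1 to 4 and at 454, 388, 327 and 382 TPM in ΔAgo2 replicates 1 to 4. The ΔAgo2 libraries were the higher on average, but wild-type replicate 3 lay within their range, so the groups overlapped. With library sizes scaled by edgeR's TMM factors (CPM), the log2 fold change of ΔAgo2 against wild-type was 0.23 (standard error 0.27). It was 0.29 without wild-type replicate 4. Lama5 supplied 99.9% or more of the summed α chain TPM in each of the 8 libraries, at 99.92 ± 0.012% (SD, n = 4) in wild-type and 99.98 ± 0.0080% (SD, n = 4) in ΔAgo2 cells. In bulk libraries, fewer cells with a transcript and less transcript per cell cannot be told apart.

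Lama1 (ENSMUSG00000032796.8, chr17:67697259-67822647, plus strand) encodes α1, a chain best known from the early embryo and the chain of laminin-111. It was counted at 26, 22, 27 and 20 reads in wild-type replicates 1 to 4 and at 1, 0, 0 and 1 reads in ΔAgo2 replicates 1 to 4. Every wild-type library was above every ΔAgo2 library, yet all 8 were low, between 0 and 0.17 TPM. Summed over libraries and set against the library sizes scaled with edgeR's TMM factors, as for all ratios of summed reads below, the 95 wild-type and 2 ΔAgo2 reads gave a ratio of 42.7 (95% exact interval 11.5 to 358, counting error only). The fitted log2 fold change was -5.24 (standard error 0.69), a value that depends on the prior count because the ΔAgo2 libraries were at the floor of 3 counts. Even in wild-type cells, Lama1 and the other minor α chains together left Lama5 at 99.9% or more of the α chain TPM.

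Lama4 (ENSMUSG00000019846.11, chr10:38965515-39110188, plus strand) encodes α4, a chain with a truncated short arm that is typical of blood vessels, fat and nerve. It had 6, 1, 14 and 3 reads in wild-type replicates 1 to 4 and 0 reads in each ΔAgo2 library. Against a floor of 3 counts over the whole ΔAgo2 group, the 24 wild-type reads gave a ratio of 7.19 per scaled library size. This ratio leaves out the counting error and the spread of the wild-type reads, 14 of which came from replicate 3. All 8 values were at 0.06 TPM or less.

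Lama2 (ENSMUSG00000019899.16, chr10:26980036-27619758, minus strand), the α2 chain of muscle and peripheral nerve, had 9, 11, 28 and 2 reads in wild-type and 12, 13, 1 and 8 reads in ΔAgo2 libraries. The groups overlapped and the ratio of wild-type to ΔAgo2 was 1.32 (0.839 to 2.11). Lama3 (ENSMUSG00000024421.16, chr18:12333819-12583013, plus strand), the α3 chain of epithelia and hemidesmosomes, had 6, 1, 7 and 0 reads in wild-type and 11, 4, 2 and 7 reads in ΔAgo2 libraries. Its ratio was 0.525 (0.251 to 1.06), an interval that includes 1. Exons of Lama2 and Lama3 overlap an opposite-strand gene model each, Gm48084 and Gm29200, which had at most 3 and 0 counts in any library.

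Lamb1 (ENSMUSG00000002900.16, chr12:31265234-31329644, plus strand) encodes β1, the most widely used β chain. It was at 310, 235, 453 and 157 TPM in wild-type replicates 1 to 4 and at 354, 355, 296 and 405 TPM in ΔAgo2 replicates 1 to 4. The ΔAgo2 values lay inside the wild-type range. The log2 fold change was 0.12 (standard error 0.31), and 0.023 without wild-type replicate 4.

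Lamb2 (ENSMUSG00000052911.9, chr9:108479736-108490530, plus strand) encodes β2, which replaces β1 at the neuromuscular junction and in the kidney filter. It was at 30.8, 36.5, 57.9 and 45.8 TPM in wild-type replicates 1 to 4 and at 44.1, 42.7, 25.5 and 30.0 TPM in ΔAgo2 replicates 1 to 4. The groups overlapped. Its log2 fold change came to -0.52 (standard error 0.33), and -0.28 without wild-type replicate 4, the library in which its CPM was 0.83 higher on the log2 scale than in the other wild-type libraries. Lamb1 exceeded Lamb2 in all 8 libraries, by 3.43-fold to 13.5-fold in TPM. The share of Lamb2 in the β chain TPM was 14.1 ± 5.93% (SD, n = 4) in wild-type, 11.3 ± 2.19% without replicate 4, and 9.17 ± 2.07% (SD, n = 4) in ΔAgo2 cells, so the genotypes differed by less than the wild-type spread.

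Lamb3 (ENSMUSG00000026639.18, chr1:193207699-193343878, plus strand) encodes β3, a chain of epithelial laminin. It had 2, 1, 12 and 0 reads in wild-type and 2, 0, 1 and 0 reads in ΔAgo2 libraries. The ratio of wild-type to ΔAgo2 was 4.50 (1.27 to 24.2), and 12 of the 15 wild-type reads came from replicate 3, whereas the other 3 wild-type libraries overlapped the ΔAgo2 libraries.

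Lamc1 (ENSMUSG00000026478.14, chr1:153218922-153332786, minus strand) encodes γ1, which enters most known laminins. It was at 239.5, 152, 624 and 57.5 TPM in wild-type replicates 1 to 4 and at 314, 276, 263 and 289 TPM in ΔAgo2 replicates 1 to 4. The ΔAgo2 libraries lay close together, with a mean of 285 ± 21.7 TPM (SD, n = 4), in the middle of a wild-type range that spread over 268 ± 248 TPM (SD, n = 4). The log2 fold change was -0.026 (standard error 0.52). It was -0.31 without wild-type replicate 4 and 0.75 without wild-type replicate 3. In wild-type replicate 4 the log2 CPM differed from that of the other wild-type libraries by -1.66 for Lamc1, -0.39 for Lamb1, 0.83 for Lamb2 and 0.23 for Lama5. In the same order, the longest transcripts hold 53.0%, 52.5%, 58.8% and 59.9% G and C. With a correction for GC content the log2 fold change of Lamc1 was -0.032. The part of base composition in these shifts was not tested.

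Lamc3 (ENSMUSG00000026840.14, chr2:31887291-31946539, plus strand), the γ3 chain, ranged from 0.01 to 0.52 TPM in wild-type and from 0.18 to 0.76 TPM in ΔAgo2 libraries. With all libraries the log2 fold change came to 0.99 (standard error 1.00), and it was 2.72 without wild-type replicate 4, which held 46 of the 71 wild-type reads.

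The 3 abundant chains were close to each other in level. Over the 8 libraries, Lama5 averaged 336 TPM, Lamb1 320.6 TPM and Lamc1 277 TPM, and Lamb2 averaged 39.2 TPM. Among the 10558 genes at 1 TPM or more in every library these means ranked 396, 415, 486 and 4292, which puts the first 3 within the top 4.60% and Lamb2 at 40.7%. The log2 ratio of Lama5 to Lamb1 was 0.093 ± 0.25 (SD, n = 8), so these neighbors in the order did not differ beyond their spread. The log2 ratio of Lamb1 to Lamc1 was 0.40 ± 0.54 (SD, n = 8), also within its spread. Within ΔAgo2 cells alone this ratio was 0.30 ± 0.16 (SD, n = 4) and above 0 in all 4 libraries, whereas in wild-type cells it ran from -0.46 to 1.45.

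Lamc1 was the lowest of the 3 in 4 of 4 ΔAgo2 libraries and in 3 of 4 wild-type libraries, and the highest in wild-type replicate 3. The summed TPM of the 10 chains was 885 ± 457 (SD, n = 4) in wild-type and 1062 ± 109 (SD, n = 4) in ΔAgo2 cells, a difference smaller than the wild-type spread. The plot of the 4 present chains shows that most of this spread came from replicates 3 and 4.

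**Figure D1:**
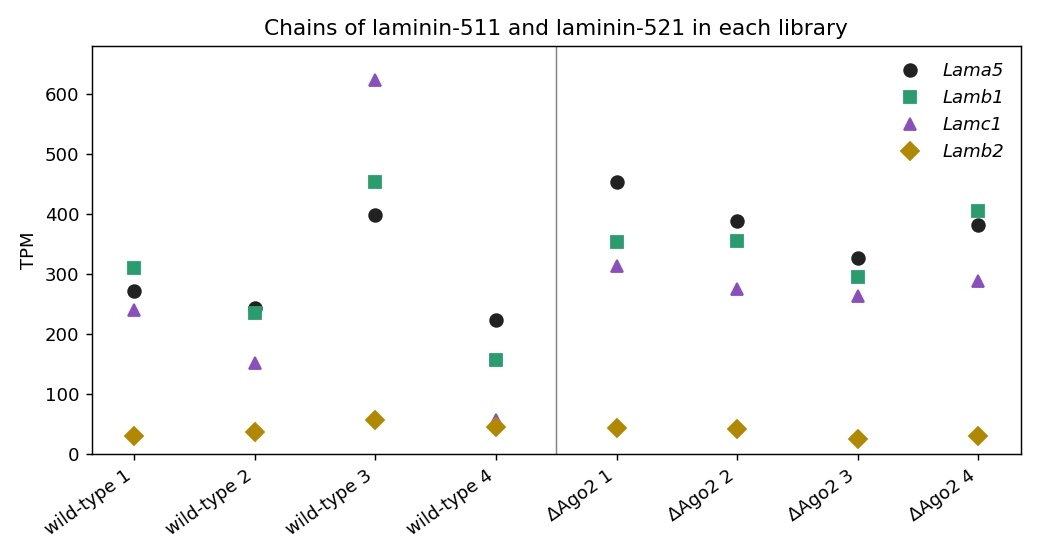
TPM of Lama5, Lamb1, Lamc1 and Lamb2 in each library (linear axis, 1 mark per chain and library). Lamc1 ranges from 57.5 to 624 TPM in wild-type and from 263 to 314 TPM in ΔAgo2 libraries, and Lamb2 is the lowest of the 4 in every library.

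A trimer was called complete in a genotype when its 3 chains were present there. Of 13 chain combinations examined, 2 were complete in each genotype, laminin-511 and laminin-521 in both. Laminin-511, a basement membrane laminin of many epithelia and of the embryo, had a least abundant chain at 239.5, 152, 398 and 57.5 TPM in wild-type and at 314, 276, 263 and 289 TPM in ΔAgo2 libraries. That chain was Lamc1 in every library except wild-type replicate 3, where it was Lama5. Laminin-521 was limited by Lamb2 in all 8 libraries, at 25.5 to 57.9 TPM. Both trimers draw on Lama5 and Lamc1, so each limit was read for its trimer alone and the limits do not add up.

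The other 11 combinations were complete in neither genotype, and their least abundant chain never exceeded 0.76 TPM. Laminin-111 and laminin-121 lacked Lama1 in both genotypes, laminin-411 and laminin-421 lacked Lama4, laminin-211 and laminin-221 lacked Lama2, and laminin-311 and laminin-321 lacked Lama3. Every incomplete trimer lacked its α chain except laminin-523, which lacked Lamc3. Requiring 0.5 or 5 TPM instead of 1, or leaving out any 1 library, gave the same number of complete trimers.

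**Figure D2:**
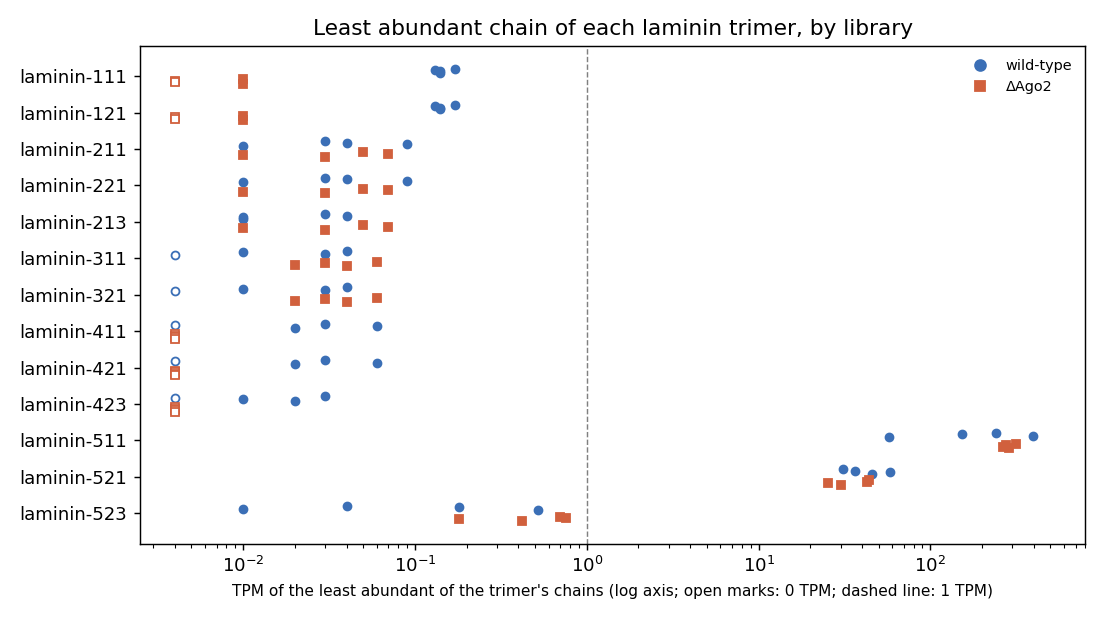
TPM of the least abundant chain of each of 13 laminin trimers on a log axis, in 4 wild-type (circles) and 4 ΔAgo2 (squares) libraries, with open marks for 0 TPM and a dashed line at 1 TPM. Laminin-511 and laminin-521 lie to the right of the line in all 8 libraries, and the other 11 trimers lie at 0.76 TPM or less.

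The genotypes were compared over all 14228 genes that passed a filter on low counts, with edgeR's quasi-likelihood test. Of the 9 laminin chains, 5 passed the filter (Lama1, Lama5, Lamb1, Lamb2 and Lamc1), and Lama1 passed it through its wild-type libraries alone. Lama1 was the 1 chain of the 5 with an adjusted p under 0.05, lower in ΔAgo2 cells, and also the only one of the 5 whose groups did not overlap. It lost this call when wild-type replicate 1 (adjusted p = 0.0570) or any 1 ΔAgo2 library (0.0713 to 0.131) was left out, and with limma on log2(TPM + 1) and log2(TPM + 0.1). Over all genes tested, 0.295% had an adjusted p under 0.05, 0.218% in this direction, and 6.07% had groups that did not overlap, 2.98% in this direction. Nothing is read from this count, since the chains were listed with this contrast known. The median log2 fold change was -0.026 over the 5 tested chains and -0.11 over all genes tested. With limma on log2(TPM + 1) the median of all genes was 0.15. The fold changes were 0.47 for Lama5, 0.38 for Lamb1, -0.25 for Lamb2 and 0.58 for Lamc1. Lamc1 thus had the other sign than in edgeR's test, and it was also positive with limma-voom on counts (0.38). None of these 4 chains had an adjusted p under 0.05 in edgeR's test or with limma on log2(TPM + 1).

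Ago2 acts with microRNAs, small RNAs that pair with 3′ untranslated regions (UTRs) through bases 2 to 8, the seed. The miR-29 family is known for sites in basement membrane and collagen transcripts, and its mature sequences from RefSeq are shown with the seed in capitals because all 3 share it.
miR-29a-3p: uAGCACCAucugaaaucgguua
miR-29b-3p: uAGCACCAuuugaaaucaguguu
miR-29c-3p: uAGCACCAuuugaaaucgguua
Lamc1 site: tattatctgacacacTGGTGCTa
The Lamc1 site lies at chr1:153220068-153220090 of GRCm38 on the minus strand, in the 3′ UTR within exon 28 of 28, and its capitals mark the complement TGGTGCT of the seed, at position 1398 of 2551. Of the 9 chains, 1 held TGGTGCT in the annotated 3′ UTR of its longest coding transcript. The Lamc1 3′ UTR is the longest of the 9, with 110 to 368 bases in the others, and 23.9% of 3′ UTRs of like length (80 to 125%) held these letters. The complements of 3 more seeds were searched on the transcript strand, let-7 (CTACCTC), miR-200b (CAGTATT) and miR-21 (ATAAGCT). Of the 9 chains, 0, 1 and 0 held a match, the 1 again being Lamc1. Among 3′ UTRs of a length like that of Lamc1, 26.1% held the miR-200b letters. MicroRNA levels were not analysed here, these seeds were chosen after the Lamc1 values were seen, and its CPM did not separate the genotypes.

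Laminin acts with other basement membrane proteins and with receptors on the cell. Of 58 genes listed as netrins, linkers and proteoglycans, basement membrane collagens, laminin receptors, enzymes that glycosylate dystroglycan and proteases that cleave laminin, 45 were tested. None of the 45 had an adjusted p under 0.05 in edgeR's test or in limma-voom, against 0.295% of all genes in edgeR. At an unadjusted p under 0.05 there were 7, with Itga6, B4gat1 and Plau higher and Agrn, Bcam, Mcam and Itga7 lower in ΔAgo2 cells, against 7.34% of all genes. DESeq2, which tested more genes, called 5 of the 58 listed genes, Plau higher and Agrn, Mcam, Itga7 and Nid2 lower. Over all genes it called 2.23% of the 17926 that had an adjusted p. How many of the 58 had one was not counted, so these shares have unlike denominators. Over the 45 tested partners the median log2 fold change, -0.07, lay near the -0.11 of all genes. The plot of fold changes shows each gene with its standard error.

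**Figure D3:**
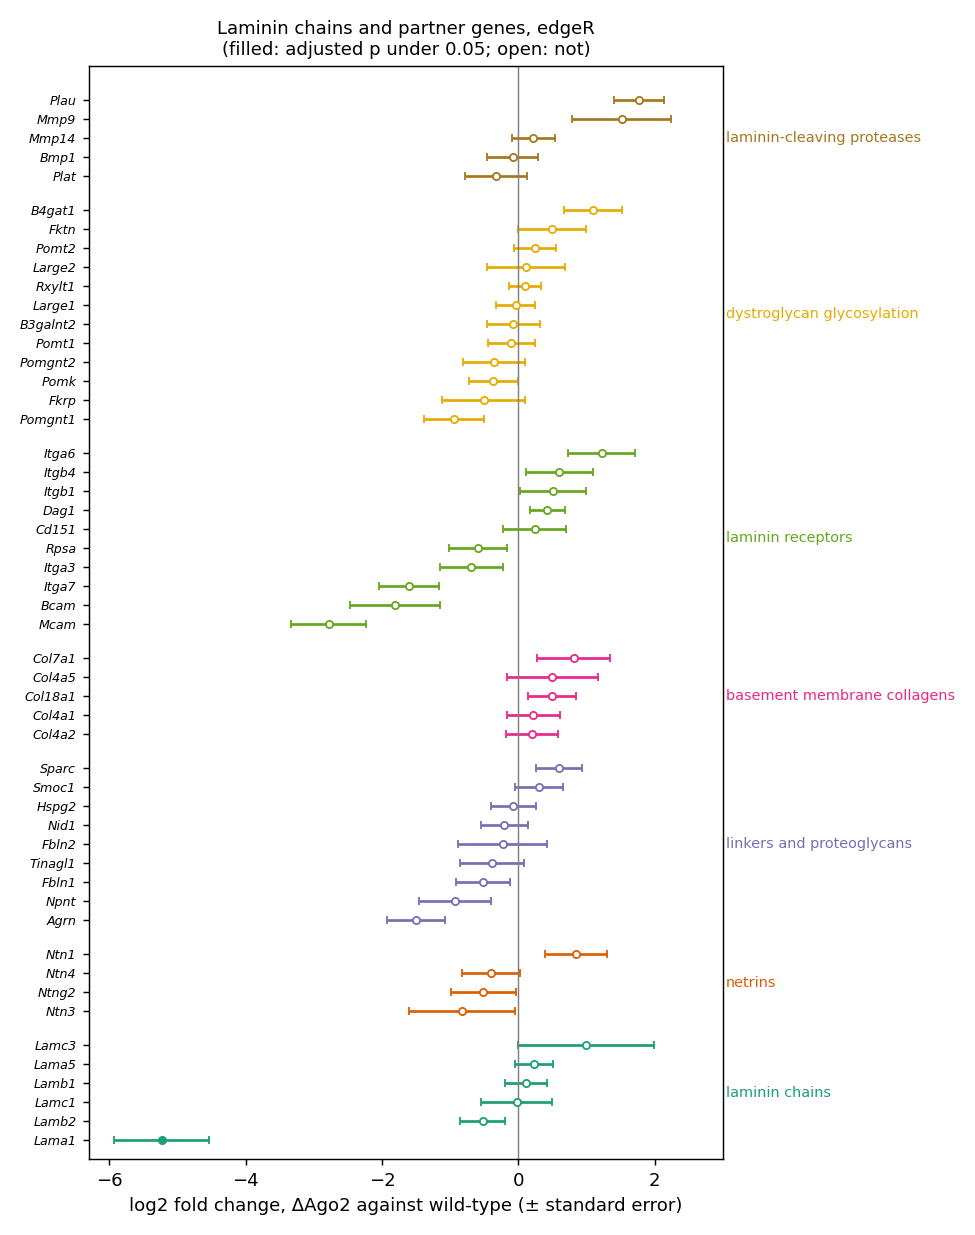
Log2 fold change of ΔAgo2 against wild-type with its standard error from edgeR for the tested laminin chains and 45 tested partner genes, by list. Lama1 (-5.24) is the 1 filled mark, for an adjusted p under 0.05, and all other marks are open.

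The linkers and proteoglycans had 9 of 14 genes tested, with a median log2 fold change of -0.23. At an unadjusted p under 0.05 there was 1 gene, lower, against 7.34% of all genes in either direction. That gene was Agrn, which encodes agrin, a proteoglycan that binds laminin and dystroglycan. It was at 67.1, 25.3, 103 and 32.0 TPM in wild-type and at 21.0, 20.1, 25.8 and 24.4 TPM in ΔAgo2 libraries, with a log2 fold change of -1.51 (standard error 0.42, edgeR adjusted p = 0.301). Wild-type replicates 1 and 3 carried most of this difference, and on CPM the groups overlapped. Sparc, a matricellular protein that binds collagen IV and the highest of this list in mean TPM over the 8 libraries, was at 537 ± 154 TPM (SD, n = 4) in wild-type and 983 ± 60.4 TPM (SD, n = 4) in ΔAgo2 cells, with a log2 fold change of 0.60 (standard error 0.34, edgeR adjusted p = 0.732).

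Nidogen and perlecan were read after their values were seen, because they bind laminin or its receptors directly. Nid1, the nidogen that binds γ1, was at 365 ± 189 TPM (SD, n = 4) in wild-type and 347 ± 54.5 TPM (SD, n = 4) in ΔAgo2 cells, a level close to that of Lamc1. Hspg2, which encodes perlecan, was at 309 ± 75.5 and 354 ± 59.4 TPM (SD, n = 4 each). Neither differed beyond its spread, and without wild-type replicate 4 the log2 fold change went from -0.20 to -0.42 for Nid1 and from -0.075 to 0.23 for Hspg2. Nid2, the second nidogen, had 27, 9, 212 and 42 reads in wild-type and 6, 4, 5 and 7 reads in ΔAgo2 libraries, at most 2.08 TPM, and did not pass the filter.

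The basement membrane collagens had 5 of 9 genes tested, with a median log2 fold change of 0.50. None of the 5 was at an unadjusted p under 0.05, against 7.34% of all genes. Col4a1, an α chain of the collagen IV network and the highest of this list in mean TPM over the 8 libraries, was at 683 ± 441 TPM (SD, n = 4) in wild-type and 907 ± 206 TPM (SD, n = 4) in ΔAgo2 cells. Col7a1, the collagen of anchoring fibrils and the gene of this list with the largest fold change, was at 1.84, 6.22, 12.4 and 5.66 TPM in wild-type and at 17.3, 15.5, 4.84 and 15.5 TPM in ΔAgo2 libraries. ΔAgo2 replicate 3 lay among the wild-type values, and the log2 fold change was 0.81 (standard error 0.53, edgeR adjusted p = 0.740). The netrins, secreted or membrane-anchored proteins with a laminin-type domain, had 4 of 6 tested and a median of -0.46. Their highest gene in mean TPM over the 8 libraries, Ntn1, was at 51.7 ± 23.3 TPM (SD, n = 4) in wild-type and 117 ± 24.7 TPM (SD, n = 4) in ΔAgo2 cells, with a log2 fold change of 0.84 (standard error 0.45, edgeR adjusted p = 0.728), and 1.42 (adjusted p = 0.0971) without wild-type replicate 4.

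All 10 laminin receptors passed the filter, with a median log2 fold change of -0.18. At an unadjusted p under 0.05, 1 was higher and 3 were lower in ΔAgo2 cells, against 7.34% of all genes in either direction. Mcam, a cell adhesion molecule that binds laminin α4 and α5 chains, had the largest fold change, -2.79 (standard error 0.55, edgeR adjusted p = 0.0938, DESeq2 adjusted p = 2.0e-05). It was at 7.18, 2.78, 9.96 and 4.07 TPM in wild-type and at 1.26, 1.52, 0.40 and 0.90 TPM in ΔAgo2 libraries, and every wild-type library was above every ΔAgo2 library. Rpsa, the ribosomal protein also described as a laminin receptor, was the highest in mean TPM over the 8 libraries, between 2321 and 5127 TPM in wild-type and between 2435 and 3058 TPM in ΔAgo2 libraries. The fitted log2 difference was -0.59 (standard error 0.42, edgeR adjusted p = 0.757), and -0.020 without wild-type replicate 4.

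The receptors of laminin-511 were read after their values were seen. Itga6, the α6 integrin subunit, was at 247, 157, 153 and 23.8 TPM in wild-type and at 406, 338, 417 and 301.5 TPM in ΔAgo2 libraries. The groups did not overlap, but wild-type replicate 4 lay far below the other 3, and the log2 fold change was 1.22 (standard error 0.49, edgeR adjusted p = 0.613) with it and 0.91 without it. Itgb1, the β1 subunit that pairs with it, was at 601 ± 429 TPM (SD, n = 4) in wild-type and 914 ± 92.1 TPM (SD, n = 4) in ΔAgo2 cells. Itga3, the α3 subunit, was at 130 ± 46.0 and 102 ± 42.8 TPM, and Dag1, which encodes dystroglycan, at 93.2 ± 13.5 and 147 ± 20.3 TPM, in the same order (SD, n = 4 each). The edgeR adjusted p was 0.809 for Itgb1, 0.740 for Itga3 and 0.738 for Dag1. Without wild-type replicate 4 the log2 fold change went from 0.51 to 0.20 for Itgb1 and from -0.69 to -0.16 for Itga3. That of Cd151, a tetraspanin that binds laminin-binding integrins, went from 0.24 (adjusted p = 0.912) to 1.03, where it passed the threshold. Bcam, another listed receptor, was near the floor, at 0.925 ± 0.57 TPM in wild-type and 0.33 ± 0.15 TPM in ΔAgo2 cells (SD, n = 4 each). Its log2 fold change was -1.81 (standard error 0.66, edgeR adjusted p = 0.537). Itgb4, the β4 integrin subunit, was at 4.0 ± 1.4 and 7.6 ± 3.8 TPM, in the same order (SD, n = 4 each). Its log2 fold change was 0.60 (edgeR adjusted p = 0.783), and 0.99 without wild-type replicate 4.

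Of the enzymes that build the laminin-binding glycan of dystroglycan, 12 were tested, with a median log2 fold change of -0.056. B3galnt2, a glycosyltransferase and the highest of them in mean TPM over the 8 libraries, was at 36.5 ± 20.4 TPM (SD, n = 4) in wild-type and 36.9 ± 1.52 TPM (SD, n = 4) in ΔAgo2 cells, with a log2 fold change of -0.075 and of -0.35 without wild-type replicate 4. B4gat1, the glucuronyltransferase of this pathway, was at 0.46, 0.60, 0.29 and 0.39 TPM in wild-type and at 1.46, 0.82, 0.79 and 1.22 TPM in ΔAgo2 libraries. The groups did not overlap, and the fitted log2 difference was 1.10 (standard error 0.42, edgeR adjusted p = 0.585).

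Of the laminin-cleaving proteases, 5 of 7 were tested, with a median log2 fold change of 0.22. Plau, which encodes the plasminogen activator urokinase, was both the highest in mean TPM over the 8 libraries and the one with the largest fold change. It was at 484, 220, 247 and 159 TPM in wild-type and at 893, 946, 1148 and 1339 TPM in ΔAgo2 libraries, so the lowest ΔAgo2 library exceeded the highest wild-type library. The fitted log2 difference was 1.77 (standard error 0.37, edgeR adjusted p = 0.110) and missed the threshold, with a DESeq2 adjusted p of 0.000832.

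Because Lamc1 varied most among the abundant chains, the genes with the most similar pattern were sought as the smallest Euclidean distance between log2 CPM values centered on their mean over the 8 libraries. They were Mfsd8 (0.40), Aldh6a1 (0.43) and Plk2 (0.66), genes of a lysosomal transporter, a mitochondrial dehydrogenase and a kinase. They were picked for this likeness in the same libraries, so a wider spread in wild-type than in ΔAgo2 libraries follows from the choice. In wild-type and ΔAgo2 libraries, Mfsd8 was at 2.45 ± 1.96 and 2.60 ± 0.222 TPM (SD, n = 4 each). Aldh6a1 was at 9.62 ± 7.74 and 10.2 ± 0.644 TPM, and Plk2 at 38.8 ± 36.0 and 35.3 ± 5.64 TPM. The likeness rests on 8 libraries that differ in depth and base composition, and it is given as a description.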

How the data were processed

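The authors purified total RNA from LLC cells and sequenced stranded mRNA libraries paired-end. Reads were first aligned on rRNA and then on mm10, and featureCounts gave the reads per gene. The submitters' processing notes name STAR. The deposited counts are whole reads without normalization. The deposited TPM values are rounded to 2 decimals. For genes over 20 TPM, the ratio of counts to TPM was divided by the GENCODE M21 exon length. In each library 99.5% or more of these genes were within 1% of the median of that value. The strand setting of the counting is not given in the sources used here, so reads of antisense partners cannot be told apart.

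Samples were grouped by their labels. Genes were filtered with filterByExpr, normalized with TMM and tested with edgeR 4.0.16 in R 4.3.3 (quasi-likelihood, two-sided, genotype as the only factor, Benjamini-Hochberg adjustment over 14228 genes). CPM are counts over TMM-scaled library sizes. Standard errors are the log2 fold change over the square root of F. A count of 3 was taken as the floor. Ratios of summed counts are per TMM-scaled library size and carry exact 95% intervals that cover counting error only. That of Lama4, which had 0 ΔAgo2 reads, is set against the floor and carries no interval. The methods were tested on simulated counts.

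The laminin chains and the partner, marker and trimer lists were chosen with earlier results of these data known. Of each partner list, genes past the threshold, the highest in TPM and the one with the largest fold change are named, and other partners are named for their role or as the few below an unadjusted p of 0.05. Some laminin and partner results are not reported here.

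Same-numbered libraries were checked for pairing, and their deviations from the group means correlated at -0.14, -0.05, 0.38 and 0.03, so the numbers were not taken to pair the libraries. Alternatives were DESeq2 1.42.0, limma-voom (limma 3.58.1), other scalings and filters, a robust fit, the replicate block, a GC correction, limma on log2(TPM + 1) and log2(TPM + 0.1), other TPM minimums and each library left out in turn.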

Additional observations from a re-analysis of the deposited data

Results flagged for a closer look

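A library that lay far from the other 3 of its genotype was found in 1 of 46 sets of 4 log2 CPM values examined (Dixon's ratio of gap to range above its 95% critical value), and chance gives about 1 in 20. Col7a1, the collagen of anchoring fibrils, had a ratio of 0.937 among ΔAgo2 libraries, where replicate 3 was at 4.84 TPM and the other 3 between 15.5 and 17.3 TPM.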

How the results depend on the processing

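The chains present (4 in each genotype) and the complete trimers (2 in each) had the same number at TPM minimums of 0.5 and 5. The same held with the group median in place of every library, with TPM recomputed from counts and exon length, and without any 1 library. The number of laminin chains past the threshold was 0 with a minimum count of 50, where Lama1 was not tested, and 0 with limma on log2(TPM + 1) and on log2(TPM + 0.1), and ran from 0 to 1 without single libraries. Lama1 lost its call without wild-type replicate 1 (adjusted p = 0.0570) and without ΔAgo2 replicate 1 (0.131), 2 (0.101), 3 (0.109) or 4 (0.0713), with a log2 fold change from -5.67 to -4.95. The partner genes past the threshold numbered 5 with DESeq2, 2 without a filter (Mcam and Plau), 1 on log2(TPM + 0.1) (Plau), and 0 to 2 without single libraries, with 2 without wild-type replicate 2 (Mcam and Nid2) and 1 without wild-type replicate 4 (Cd151).

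The log2 fold change of Lamc1 turned positive with limma-voom (0.38), library size alone (0.051), log2(TPM + 1) (0.58) and log2(TPM + 0.1) (0.58), and ran from -0.31 to 0.75 without single libraries. That of Lamb1 ran from -0.052 to 0.36 without single libraries. That of B3galnt2 turned positive with limma-voom (0.098), log2(TPM + 1) (0.30) and log2(TPM + 0.1) (0.32), and ran from -0.35 to 0.18 without single libraries. The cause of these reversals was not tested.

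In the fit with the replicate block, 18 genes passed the threshold instead of 42, Lama1 among them, no partner gene passed, Lamc1 was at 0.39 and B3galnt2 at 0.096, and with the GC correction and the block together Lamc1 was at 0.51. Only 1 of 8 libraries correlated best with its own number in the other genotype.

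Over all genes, 42 calls (11 higher and 31 lower) became 399 with DESeq2, 143 without a filter, 6 with a minimum count of 50, 71 (27 higher and 44 lower) with the GC correction, 65 with it and the block, 15 (8 higher and 7 lower) on log2(TPM + 1), 38 (17 higher and 21 lower) on log2(TPM + 0.1), and 1 to 113 without single libraries, with 113 without wild-type replicate 4 and 1 without ΔAgo2 replicate 1. Depth limits Lama1, Lama2, Lama3, Lama4 and Lamb3, which had at most 28 counts in any library.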
